A study of Bos taurus with 20 samples.

Results

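Immediate early and heat shock genes were followed in Musculus longissimus dorsi, the long muscle of the back, of 20 bulls. The 10 genes are FOS, JUN, JUNB, EGR1 and ATF3, which are immediate early genes, and HSPA1A, HSPA8, HSPB1, HSPH1 and DNAJB1, which belong to the heat shock system. They were taken as every probe set that the platform annotation gives to exactly 1 of these symbols, which yielded 26 of the 24016 probe sets on the cattle Affymetrix array. All animals were F2 bulls from a Holstein x Charolais cross. The study compared 10 bulls with high intramuscular fat (IMF) with 10 bulls with low IMF, with 1 array per bull. In both groups 5 titles carry an S before the animal number and 5 carry none. These sets of 10 and 10 are called S and no S here, and the labels do not say what separates them. Age, time after slaughter and handling of the animals are not given in the sources used here.

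Immediate early genes are transcribed within minutes of a signal such as a growth factor, stretch, contraction, injury or stress, without new protein being made first. Most of them encode transcription factors, and their mRNAs are short lived. Heat shock genes encode chaperones that bind unfolded proteins. Some are made constantly, others are switched on by heat shock factor when proteins unfold. In skeletal muscle, both families are known to respond to exercise and to the conditions around death and sampling.

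The deposited values are linear signal intensities, and tests used log2(intensity + 1). Array medians ran from 51.6 to 67.6, and zeros made up 0.462% to 1.05% of each array. Summed over 9 muscle fibre markers measured on the array, the intensity lay between 111309 and 133775 in S bulls and between 120827 and 128273 in no S bulls, so muscle markers were high in both sets. Hybridisation and poly-A controls differed between the title sets. The BioB control had intensities from 204 to 343 in S and from 387 to 455 in no S, without overlap, and the lys control from 226 to 391 in S and from 116 to 211 in no S. The ratio of the 3' to the 5' actin control, a sign of RNA integrity and labelling, had a median of 0.767 in S and 0.864 in no S, with overlap. How the animals differed and how the arrays were made cannot be told apart between S and no S.

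Of the 26 probe sets, 22 were bright enough to be tested, which required a mean among the upper 60% of all probe sets. The 4 left out were 1 of 5 for JUN, 1 of 6 for HSPA1A and 2 of 4 for HSPH1. Intensities of different probe sets depend on their probes, so the genes were not ranked by level. Where a gene had several probe sets, the one with the highest mean is called its main probe set.

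No difference between IMF groups passed the test for any of the 10 genes. In limma's test of high minus low IMF, 0 of 22 probe sets passed an adjusted p of 0.05, and 0 reached an unadjusted p of 0.05. The background was the same: 0% of the 14410 probe sets tested were called, 239 of them (1.66%) reached an unadjusted p of 0.05, and the lowest adjusted p was 0.9997. The t-test named in the study's design text, run unpaired, called 0 of these 22 probe sets after Benjamini-Hochberg adjustment and 0 at an unadjusted p of 0.05. With the title set as a covariate the count was 0 again. The IMF difference was not found to depend on the title set either, with 0 of 22 past the interaction test by adjusted p (0% of all; lowest 0.866) and 0 by unadjusted p (5.34% of all).

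FOS is the founding member of the FOS family, which pairs with JUN proteins to form the AP-1 transcription factor. Its main probe set ranged from 1708 through a median of 5546 to 8367 in high IMF bulls, and from 2201 through 5081 to 9093 in low IMF bulls. The groups overlapped over nearly their whole range, and the log2 difference was 0.04 (SE 0.26, 95% interval -0.51 to 0.58). By title set, FOS ranged from 3261 through 5702 to 9093 in S bulls and from 1708 through 5238 to 7612 in no S bulls. The difference, S minus no S, was 0.27 (SE 0.26, adjusted p = 0.363). The lowest intensities of both IMF groups came from no S bulls, high IMF replicate 3 and low IMF replicate 3, and the highest from S bulls, high IMF replicate 10 and low IMF replicate 6. A second FOS probe set ranged from 598 to 2496 in S and from 338 to 2112 in no S, and followed the first animal by animal (Pearson r = 0.99 over 20 bulls).

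JUN is the other partner in AP-1. Its main probe set, which varied least of the 5 main immediate early probe sets, ranged from 3888 through 4794 to 6359 in high IMF and from 3698 through 4977 to 6035 in low IMF, a log2 difference of -0.01 (SE 0.11, 95% interval -0.24 to 0.22). In S bulls it ranged from 3888 through 4901 to 6359, and in no S bulls from 3698 through 4914 to 5609. The medians of both title sets were nearly the same, and the difference was 0.06 (SE 0.10, adjusted p = 0.629). The other 3 tested JUN probe sets gave S minus no S differences between -0.22 and 0.17, none past the test. All 4 varied together over 20 bulls, with r between 0.73 and 0.86. Without the 2 bulls farthest from the median, r ran from 0.46 to 0.94 in S and from -0.03 to 0.68 in no S.

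JUNB, an AP-1 member that in part opposes JUN, had intensities from 576 through 1803 to 3153 in high IMF and from 947 through 1894 to 2960.5 in low IMF. The log2 difference was -0.06 (SE 0.26, 95% interval -0.60 to 0.47). JUNB rose in S bulls, where it ranged from 1092 through 2139 to 3153, against 576 through 1562 to 2167 in no S bulls. The sets overlapped, with 7 of 10 S bulls above the no S median. The log2 difference was 0.53 (SE 0.23, limma adjusted p = 0.0474) or 1.45-fold. This call stood at the edge of the threshold and was lost when any of 12 of the 20 arrays was left out, with differences between 0.39 and 0.64 over all 20 such fits.

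EGR1, a zinc finger factor induced by serum and mechanical load, had the widest range of the 10 genes. Its main probe set ran from 170 through 1140.0 to 4009 in high IMF and from 382 through 1431 to 4304 in low IMF, and the highest value was 25.3 times the lowest. The log2 difference between IMF groups was -0.30 (SE 0.49, 95% interval -1.31 to 0.71). EGR1 ranged from 385 through 1709 to 4304 in S bulls and from 170 through 1140.0 to 2436 in no S bulls. The sets overlapped, and the log2 difference of 0.81 (SE 0.46, 95% interval -0.14 to 1.76) did not pass (adjusted p = 0.122). Without high IMF replicate 9, the lowest S bull, it was 1.04 and passed (adjusted p = 0.0406). It was 0.42 without the 4 arrays with an albumin signal over 2000. A second EGR1 probe set was dim and flat, at 165 to 240 in S and 193 to 268 in no S. It correlated with the main one at an r of 0.18 over all bulls, 0.11 in S and 0.71 in no S, and the wide range of EGR1 comes from 1 probe set.

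ATF3, a repressor that many kinds of cell stress induce, ranged from 1282 through 2350 to 4462 in high IMF and from 823 through 2102 to 4153 in low IMF. The log2 difference was 0.23 (SE 0.30, 95% interval -0.40 to 0.85). In S bulls it ranged from 937 through 1803 to 4462 and in no S bulls from 823 through 2690 to 4270. Its S median was the lower one, unlike those of FOS, JUNB and EGR1. The difference was -0.26 (SE 0.30, adjusted p = 0.444), and -0.54 without the 4 arrays with high albumin, also not past the test.

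**Figure D1:**
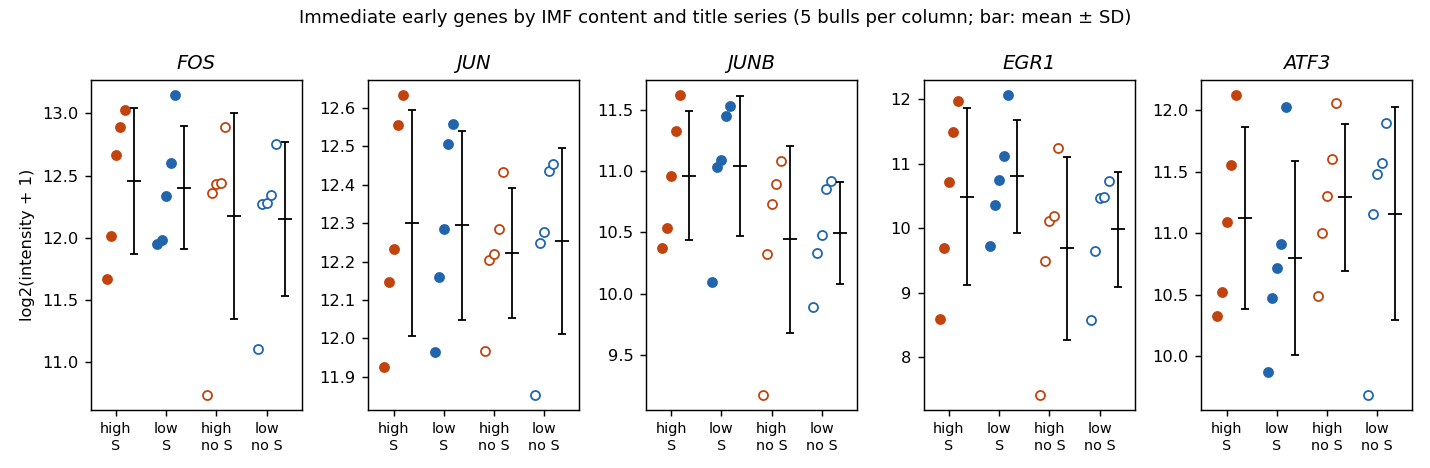
Each point is the log2(intensity + 1) of 1 bull for the main probe set of an immediate early gene, in columns of 5 bulls by IMF content and title set, with the column's mean ± SD beside it (separate vertical scales). All columns overlap, and high IMF replicate 3 in the third column is the lowest bull in FOS, JUNB and EGR1.

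The title sets differed in most probe sets of the array, and so in many of the heat shock probe sets. Of the 22 tested probe sets of all 10 genes, 10 passed in the comparison of S with no S, 6 higher and 4 lower in S. Of all 14410 probe sets, 68.3% passed, 33.4% higher and 34.8% lower. The share of members that passed was thus below that of the array, and it is not a result about these genes. The 10 were JUNB and 9 heat shock probe sets. The median log2 difference of the 22 was 0.18, against -0.003 over all tested probe sets.

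DNAJB1, the co-chaperone that brings unfolded proteins to HSP70 and starts its cycle, had the largest difference between title sets of the 10 genes. Its main probe set ranged from 591 through 1427 to 2478 in S bulls and from 402 through 641 to 1250 in no S bulls. The sets overlapped, with 9 of 10 S bulls above the no S median. The mean log2 value was 10.33 ± 0.85 in S and 9.30 ± 0.50 in no S (SD, n = 10 each), a difference of 1.03 (SE 0.29, adjusted p = 0.00399) or 2.03-fold. The second probe set gave 180 through 393 to 725 in S and 97.4 through 158 to 377 in no S, a difference of 1.16 (SE 0.27, adjusted p = 8.98e-04). The main probe set differed by 1.01 within high IMF and by 1.04 within low IMF, where it did not pass alone (adjusted p = 0.0695). By IMF, it ranged from 402 through 713 to 2349 in high and from 432 through 758 to 2478 in low, a difference of -0.15 (SE 0.36, 95% interval -0.91 to 0.61).

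HSPB1, the small heat shock protein that stabilises actin and desmin filaments in muscle, rose in S by its main probe set. It ranged from 12252 through 14264 to 15790 in S bulls and from 8786 through 10307 to 11461 in no S bulls, and the sets did not overlap. Non-overlap was seen in 19.6% of all tested probe sets, with 10.4% higher and 9.26% lower in S. HSPB1 and HSPA8, with 1 probe set each, were the members without overlap. The difference was 0.47 (SE 0.07, adjusted p = 3.77e-06) or 1.39-fold. A second probe set, close to the lower limit of intensity for testing, went the other way: it had 28.9 through 39.4 to 89.4 in S and 69.7 through 88.3 to 105 in no S (difference -0.94, SE 0.19, adjusted p = 2.05e-04). Both probe sets correlated at an r of -0.31 among S bulls and of 0.85 among no S bulls. Of 1565 genes with several tested probe sets, 143 (9.14%) had probe sets called in both directions. The IMF groups gave 8786 through 11857 to 14964 in high and 9154 through 11959 to 15790 in low (difference 0.03, SE 0.13, 95% interval -0.23 to 0.30).

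HSPA8, the constantly made HSP70 of the cytosol, fell in S. It ranged from 6180.1 through 6879 to 7666 in S bulls and from 8660 through 9484 to 10635 in no S bulls, again without overlap. The mean log2 value was 12.74 ± 0.12 in S and 13.22 ± 0.09 in no S (SD, n = 10 each), a difference of -0.48 (SE 0.06, adjusted p = 1.12e-06), which is a ratio of 0.718. It was -0.47 within high IMF and -0.49 within low IMF. High IMF bulls had 6180.1 through 8163 to 10635 and low IMF bulls 6353 through 8089.9 to 10200, a difference of 0.02 (SE 0.13, 95% interval -0.24 to 0.28).

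HSPH1, the HSP110 protein that exchanges nucleotide on HSP70, also fell in S by both tested probe sets. The main one ranged from 372 through 629 to 848 in S bulls and from 610 through 902 to 1795 in no S bulls, with all 10 S bulls below the no S median. The difference was -0.83 (SE 0.20, adjusted p = 0.00102), a ratio of 0.564. The second probe set had 151 through 168 to 246 in S and 206 through 278 to 373 in no S (difference -0.60, SE 0.11, adjusted p = 1.07e-04). Across bulls of the same title set these probe sets did not vary together, with r of -0.08 in S and -0.47 in no S. The 2 dim HSPH1 probe sets, which were not tested, had medians of 11.7 and 4.41 in S and 22.5 and 11.3 in no S. By IMF, HSPH1 ranged from 546 through 807 to 1795 in high and from 372 through 677 to 1736 in low, a difference of 0.32 (SE 0.27, 95% interval -0.24 to 0.87).

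HSPA1A, the HSP70 that heat and other stress induce, has a near-identical neighbour gene in mammals, HSPA1B, and whether its probe sets tell the copies apart was not tested. The annotation gives its 6 probe sets to 2 gene identifiers, 1 of which, with 2 probe sets, was not matched in the RefSeq gene table. These 2 are the main probe set, which the correlations use, and the next brightest. The main probe set ranged from 6486 through 8267 to 10475 in S and from 5349 through 6978 to 9001 in no S, a difference of 0.20 (SE 0.11, adjusted p = 0.0950). Of the 5 tested probe sets, all were higher in S and 2 passed, with differences of 0.41 (SE 0.13, adjusted p = 0.00756) and 0.81 (SE 0.13, adjusted p = 1.38e-05). The first of these had 5917 through 8604 to 11862 in S and 4905 through 6133 to 7485 in no S. The second was the dimmest tested, at 118 through 222 to 267 in S and 93.9 through 117 to 152 in no S. The 3 brightest probe sets ranked the bulls alike (r from 0.91 to 0.92 over 20 bulls), while the 2 dimmer ones followed them less closely, with r from -0.28 to 0.45 within title sets. With each array centred on its median, the other 2 bright probe sets also passed, at 0.27 and 0.38. By IMF, the main probe set had 6382 through 7100.5 to 9377 in high and 5349 through 8416 to 10475 in low, a difference of -0.10 (SE 0.12, 95% interval -0.35 to 0.15).

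**Figure D2:**
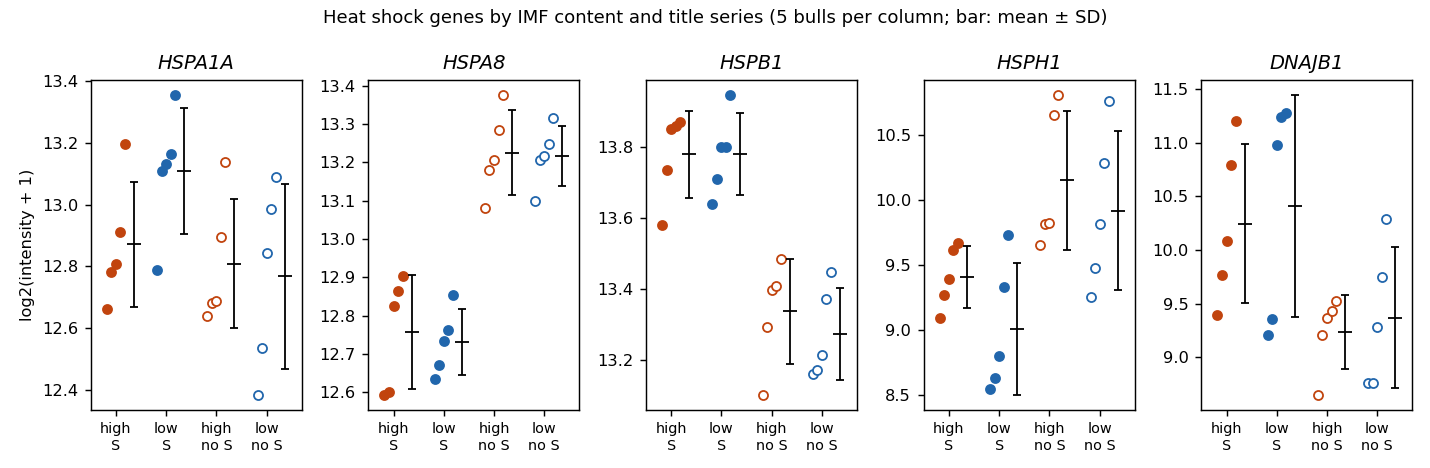
Each point is the log2(intensity + 1) of 1 bull for the main probe set of a heat shock gene, in columns of 5 bulls by IMF content and title set, with the column's mean ± SD beside it (separate vertical scales). HSPA8 is lower and HSPB1 higher in every S bull than in every no S bull, while high and low IMF columns of the same title set overlap in all 5 genes.

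**Figure D3:**
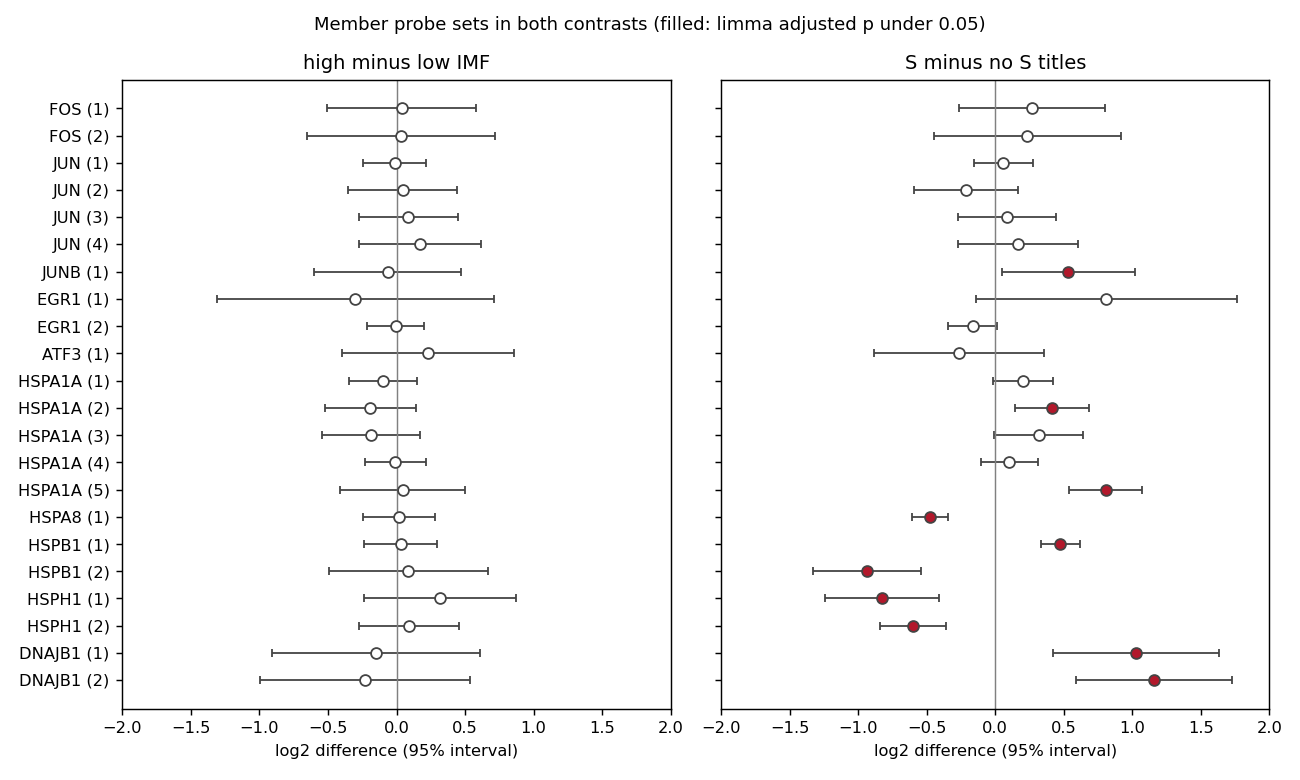
Log2 differences of the 22 tested probe sets with 95% intervals, high minus low IMF on the left and S minus no S on the right; filled points passed limma's adjusted p of 0.05, and numbers in brackets count a gene's probe sets from bright to dim. No point is filled on the left, and 10 are on the right, 6 above 0 and 4 below, including both directions for HSPB1.

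The main probe sets of EGR1, ATF3, FOS and JUNB varied more between bulls than most probe sets. The SD of log2 values over 20 bulls was 1.16 for EGR1, larger than in 99.3% of tested probe sets, 0.71 for ATF3 (92.9%), 0.61 for FOS (86.3%) and 0.60 for JUNB (85.9%). The main JUN probe set had an SD of 0.22, larger than in 15.1%, while the other 3 tested JUN probe sets had SDs larger than in 65.5%, 58.6% and 75.6%. The second EGR1 probe set had 0.19, larger than in 8.80%. Among the heat shock genes, DNAJB1 had 0.86 (97.2%) and HSPH1 0.64 (88.9%). Within the 4 cells of 5 bulls that share IMF group and title set, the SD of HSPA8 was 0.11, larger than in 2.71% of probe sets, and that of HSPB1 0.13 (5.69%). Among tested probe sets of similar mean (within 0.5 log2 units), the within-cell SD was larger than in 25.6% for HSPA8, in 73.2% for HSPB1 and in 87.0% for the main JUN probe set. The within-cell SD of FOS, JUNB, EGR1, ATF3, HSPH1 and DNAJB1 was in the top 10% of all. Of the 22 tested probe sets, 16 had an SD above the array's median of 0.35, and 16 did with arrays centred on their medians.

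At both ends of the range, the same bulls were extreme in the main probe sets of all 5 immediate early genes. Not all other probe sets followed. In the second EGR1 probe set low IMF replicate 6, at the upper end, had 184, below the S median of 209. Averaged over the 5 main probe sets, the level ran from 9.96 log2 units in high IMF replicate 3 and 10.31 in low IMF replicate 3 to 12.18 in low IMF replicate 6 and 12.26 in high IMF replicate 10. In each of the first 2 bulls all 5 main probe sets were among the 5 lowest of 20 values. In each of the last 2 all 5 were among the 5 highest. Both ends thus held 1 high and 1 low IMF bull, with no S bulls at the bottom and S bulls at the top. These 4 bulls were picked by the mean of the same 5 probe sets, which in part builds in this result. Low IMF replicate 10 was mixed, with 3 of the 5 among the 5 lowest and 1 among the 5 highest. The level averaged 11.32 ± 0.68 in high IMF and 11.34 ± 0.52 in low IMF, and 11.47 ± 0.57 in S and 11.19 ± 0.60 in no S (SD, n = 10 each). Of these 4 bulls, low IMF replicate 3 and high IMF replicate 10 were among the 4 arrays with an albumin signal over 2000, and high IMF replicate 3 and low IMF replicate 6 were not.

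Correlations were computed for all 45 pairs of the 10 main probe sets, with permutation p-values adjusted over the 45. Since HSPA8 and HSPB1 fall into separate clusters by title set, the 17 pairs with either are given within title sets only, which leaves 28 pairs over all 20 bulls. Of these, 9 passed by Pearson's r and 9 by Spearman's rho. They comprised 8 of 10 pairs of immediate early genes, 1 of 3 pairs of heat shock genes and 0 of 15 mixed pairs, and all 9 were positive.

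FOS and EGR1 had the highest Pearson r over all bulls, 0.87 (permutation p = 1e-05, the smallest that 100000 permutations give; adjusted 1.5e-04) and rho = 0.70 (permutation p = 8.1e-04; adjusted 0.00521). Without the 2 bulls farthest from the FOS median r was 0.75. JUNB and EGR1 had r = 0.82 (adjusted permutation p = 1.5e-04) and rho = 0.81 (0.0012), with 0.74 without the 2 farthest bulls. FOS and JUN had r = 0.80 (adjusted permutation p = 1.5e-04) and rho = 0.74 (0.00217), with 0.75 without the 2 farthest. FOS and ATF3 had r = 0.80 (adjusted permutation p = 2.57e-04) and rho = 0.82 (0.0012), with 0.83 without the 2 farthest. By rho, and without the 2 farthest bulls, FOS and ATF3 stood above FOS and EGR1. JUN with JUNB (r = 0.49, adjusted permutation p = 0.0825) and JUNB with ATF3 (r = 0.43, 0.160) were the pairs that did not pass. JUN with ATF3 and EGR1 with ATF3 no longer passed without the 4 arrays with high albumin, at r = 0.60 and 0.52.

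Within title sets the immediate early pairs had r from 0.46 to 0.91 in S bulls (median 0.78) and from 0.52 to 0.87 in no S bulls (median 0.79). After adjustment 5 of 10 passed in S and 0 of 10 in no S, where 8 of 10 had an unadjusted permutation p under 0.05. In S bulls the relation held without the 2 bulls farthest from the median, with a median r of 0.76. In no S bulls it largely rested on them: the median r was 0.37 without them and 6 of 10 pairs stood at 0.37 or below, with FOS and JUN at -0.11 and FOS and EGR1 at 0.17. FOS with ATF3 stayed at 0.76 and JUNB with EGR1 at 0.70 there. With values centred on the mean of each title set and bulls permuted within sets, 9 of 10 pairs passed. The centred r of FOS with all 14409 others had a median of 0.04 and a 90th percentile of 0.35.

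Within title sets the heat shock pairs had a median r of 0.65 in S and 0.55 in no S, and of 0.69 and 0.47 without the 2 farthest bulls. The difference from the immediate early pairs was not tested. HSPA1A and DNAJB1 had r = 0.71 over 20 bulls (permutation p = 3.7e-04, adjusted 0.0019) and rho = 0.68 (adjusted 0.0075), with 0.62 without the 2 farthest bulls. Within title sets r was 0.65 in S and 0.70 in no S. HSPA8 and HSPB1, which lay on opposite sides in S and no S, correlated positively within each set: r was 0.86 in S (adjusted permutation p = 0.0208; rho = 0.84, adjusted 0.0421) and 0.55 in no S (adjusted permutation p = 0.258; rho = 0.47, 0.430). HSPA8 and DNAJB1 had r = 0.69 in S and 0.75 in no S, and HSPB1 and DNAJB1 0.74 in S and 0.69 in no S, none of which passed within a set alone. HSPH1 had r of 0.49 with DNAJB1 and 0.03 with HSPA1A in S, and of 0.14 and 0.25 in no S. Without the 2 farthest bulls these were 0.72 and -0.09 in S and -0.06 and -0.45 in no S. With values centred within title sets, 5 of the 10 heat shock pairs passed: HSPA8 with HSPB1 (r = 0.70, adjusted permutation p = 0.00485), HSPA8 with DNAJB1 (0.70, 0.00961), HSPB1 with DNAJB1 (0.68, 0.00354), HSPA1A with DNAJB1 (0.64, 0.0120) and HSPA8 with HSPH1 (0.59, 0.0233).

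Between the families no pair passed, over all bulls, in either title set or after centring. The mixed pairs had a median r of 0.39 in S bulls and -0.09 in no S bulls, and the difference between the sets was not tested. High IMF replicate 3, lowest in the immediate early genes, had a heat shock level of 12.02 log2 units, the fifth highest in a range from 11.33 to 12.18 over all bulls. Low IMF replicate 6 was the highest in the heat shock genes and the next to highest in the immediate early genes, at 12.18 in both.

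**Figure D4:**
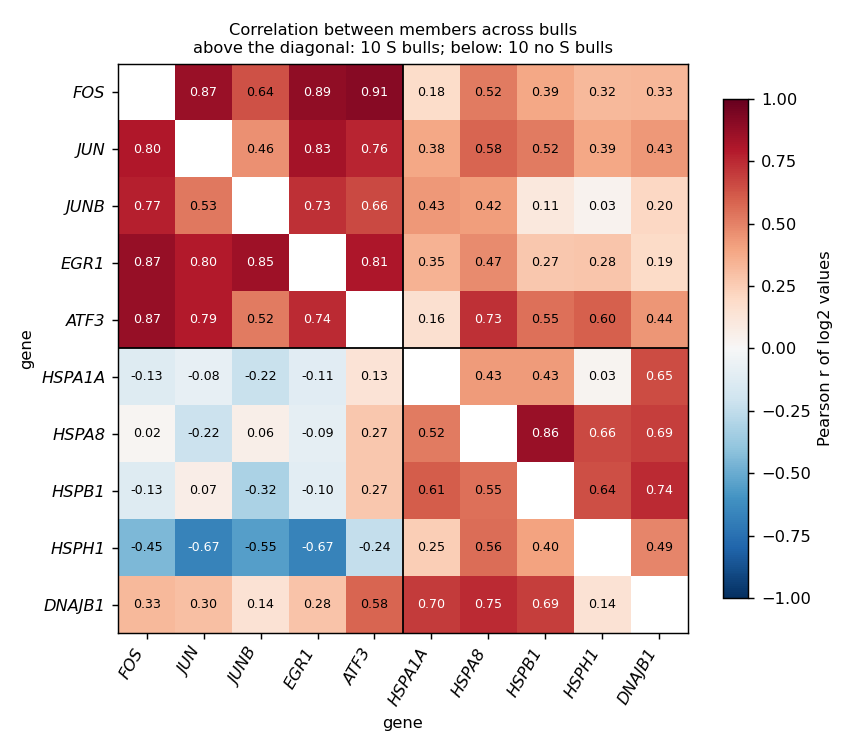
Pearson r between the main probe sets of the 10 genes, over the 10 S bulls above the diagonal and over the 10 no S bulls below it. The immediate early block is red on both sides (0.46 to 0.91 in S, 0.52 to 0.87 in no S), the heat shock block runs from 0.03 to 0.86 in S and from 0.14 to 0.75 in no S, and the mixed block is mostly pale red in S and mixed in sign in no S.

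Outside the 10 genes, the 3 genes most like each member over all 20 bulls were named by the highest r of their main probe set, as a description without a test. RHBDD2 was the nearest to FOS (r = 0.86), to JUN (0.73) and to EGR1 (0.83). CCN2 and CCN1, matricellular proteins encoded by immediate early genes, followed for FOS at 0.83 and 0.81. Nearest to JUNB were RND1 (0.86), FDFT1, the squalene synthase (0.82), and APOLD1, an immediate early gene of endothelial cells (0.81). FDFT1 (0.83) and MYOZ3, a protein of the Z-disc (0.82), were also near EGR1. JUN had CCN2 (0.72) and ACSF3 (0.71), and ATF3 had GDAP1 (0.70), PSMC3, a proteasome subunit (0.68), and ETS2, a transcription factor (0.68). For FOS, r was 0.92 in S and 0.89 in no S with RHBDD2, 0.74 in S and 0.88 in no S with CCN2, and 0.76 in S and 0.84 in no S with CCN1.

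For the heat shock genes, other chaperones were among the genes named. The main HSPH1 probe set was nearest to DNAJA1, another co-chaperone of HSP70, at r = 0.92 over 20 bulls, 0.91 in S and 0.90 in no S. GNPTAB (0.92) and IFRD1 (0.89) followed. Chosen over 20 bulls and given within title sets, HSPA8 was nearest to HSP90AA1, the inducible HSP90, at 0.74 in S and 0.65 in no S, and to CCT6A and CCT2, subunits of the cytosolic chaperonin, where r was 0.36 and 0.34 in S and 0.62 and 0.70 in no S. HSPB1 was nearest to CSNK1D, a casein kinase (0.73 in S and 0.73 in no S), RBM14 (0.63 and 0.81) and CCAR2 (0.49 and 0.82). DNAJB1 had AOC2 (0.82 over 20 bulls), NENF (0.81) and CORO6, an actin-binding coronin (0.79). Within title sets, r with DNAJB1 was 0.84 in S and 0.33 in no S for AOC2. It was 0.66 and 0.74 for NENF and 0.79 and 0.70 for CORO6. AOC2 was dim, with a mean of 5.64 log2 units against 5.39 for the dimmest probe set tested. HSPA1A had MICAL1 (0.78), ROBO4, a receptor of endothelial cells (0.74), and LOC100174924 (0.70).

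Of the wider pathway, 12 gene lists were set beside the 10 genes, with 1 probe set per gene. In the IMF contrast, 0 genes passed in all 12 lists. In S against no S, 40.7% of all 7016 genes rose and 29.5% fell, which is the background for the counts below, and the median log2 difference over all genes was 0.11.

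Of 20 other tested immediate early genes, 8 rose in S, 1 fell and 11 did not pass, with a median log2 difference of 0.33. FOSL2, an AP-1 member that persists longer than FOS, averaged 8.01 ± 0.27 log2 units in S and 6.11 ± 0.34 in no S (SD, n = 10 each), 3.73-fold higher (difference 1.90, SE 0.13, adjusted p = 1.92e-10). A second FOSL2 probe set differed by -0.17. RHOB, a short-lived GTPase, rose by 0.75 (SE 0.09, adjusted p = 3.05e-07; second probe set -0.06), and MCL1, a short-lived survival protein, fell by 0.64 on the log2 scale (SE 0.09, adjusted p = 1.62e-06). With values centred within title sets, 10 of these 20 genes correlated with FOS above the 90th percentile of all probe sets. The count was 10 for ATF3, 9 for EGR1, 8 for JUNB and 7 for JUN. Among the heat shock genes it was 7 for HSPH1, 6 for DNAJB1, 5 for HSPB1, 3 for HSPA8 and 1 for HSPA1A.

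Among the upstream activators, 3 rose, 3 fell and 2 did not pass. MAPK3, the kinase ERK1, rose by 1.05 (SE 0.06, adjusted p = 3.17e-11) and SRF, the serum response factor that drives FOS and EGR1, by 0.88 (SE 0.12, adjusted p = 1.43e-06), both without overlap of the sets, while RPS6KA3, a kinase downstream of ERK, fell by 0.73 (SE 0.12, adjusted p = 1.73e-05). Of 4 brakes on MAP kinase signalling, SPRY2 rose (0.40, SE 0.15, adjusted p = 0.0222). DUSP1, the phosphatase that is itself an immediate early gene, differed by 0.26 (adjusted p = 0.0584) and SPRY1 by -0.03. Of 8 stress genes of the ATF4 and GADD45 group, GADD45B (0.87, SE 0.15, adjusted p = 4.08e-05) and PPP1R15A, which restarts translation after stress (0.16, SE 0.07, adjusted p = 0.0478), rose. SESN2 differed by -0.24 (adjusted p = 0.0554), and by 0.21 and -0.12 in its other tested probe sets.

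All 3 tested heat shock factors changed. HSF1, the main heat shock activator, rose by 0.51 (SE 0.08, adjusted p = 1.12e-05; second probe set -0.03), HSF4 rose by 1.19 (SE 0.14, adjusted p = 3.21e-07) and HSF2 fell by 0.68 (SE 0.19, adjusted p = 0.00377). Like the main HSPB1 probe set and unlike its second (-0.94), 3 of 5 other small heat shock proteins rose in S and 0 fell. HSPB6 rose by 1.22 (SE 0.13, adjusted p = 9.29e-08), HSPB2 by 0.64 (SE 0.07, adjusted p = 1.89e-07) and CRYAB by 0.22 (SE 0.09, adjusted p = 0.0330). Like HSPA8 and HSPH1, 4 of 7 other HSP70 and HSP110 genes fell, 2 rose and 1 did not pass. HSPA1A, also an HSP70, went the other way, with all 5 tested probe sets higher in S. HSPA4, a relative of HSPH1, fell by 0.98 (SE 0.09, adjusted p = 1.12e-08, second probe set -1.28). HSPA9, the mitochondrial HSP70, fell by 0.75 (SE 0.07, adjusted p = 2.47e-08, second probe set -0.22). HSPA14 fell by 0.97 (SE 0.10, adjusted p = 8.79e-08, second probe set -0.50).

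The chaperonin list fell in 5 of 9 genes, with 1 risen and 3 not past the test, and a median of -0.50. CCT6A fell by 1.25 (SE 0.08, adjusted p = 2.26e-10), CCT2 by 1.06 (SE 0.09, adjusted p = 2.72e-09) and HSPD1, the mitochondrial chaperonin, by 1.02 (SE 0.08, adjusted p = 2.54e-09). With values centred within title sets, all 9 correlated with the main HSPH1 probe set above the 90th percentile of all probe sets. With HSPA8, 7 of 9 did so. The second tested HSPH1 probe set did not vary with the main probe set within title sets (r of -0.08 in S and -0.47 in no S). HSP90 and its co-chaperones were split, with 4 risen, 5 fallen and 3 not past the test. HSP90AA1 fell by 0.67 (SE 0.06, adjusted p = 1.92e-08; second probe set -1.70), CHORDC1 fell by 1.23 (SE 0.17, adjusted p = 3.16e-06) and FKBP4 rose by 0.77 (SE 0.09, adjusted p = 1.84e-07). DNAJ and BAG co-chaperones were split as well, with 7 risen, 8 fallen and 3 not past the test. STUB1, the ubiquitin ligase that works with HSP70, rose by 0.88 (SE 0.06, adjusted p = 7.77e-10; second probe set -0.14) and DNAJC5 by 0.99 (SE 0.10, adjusted p = 3.54e-08), while ST13, a co-chaperone of HSP70, fell by 0.65 (SE 0.07, adjusted p = 2.16e-07; second probe set -0.78).

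**Figure D5:**
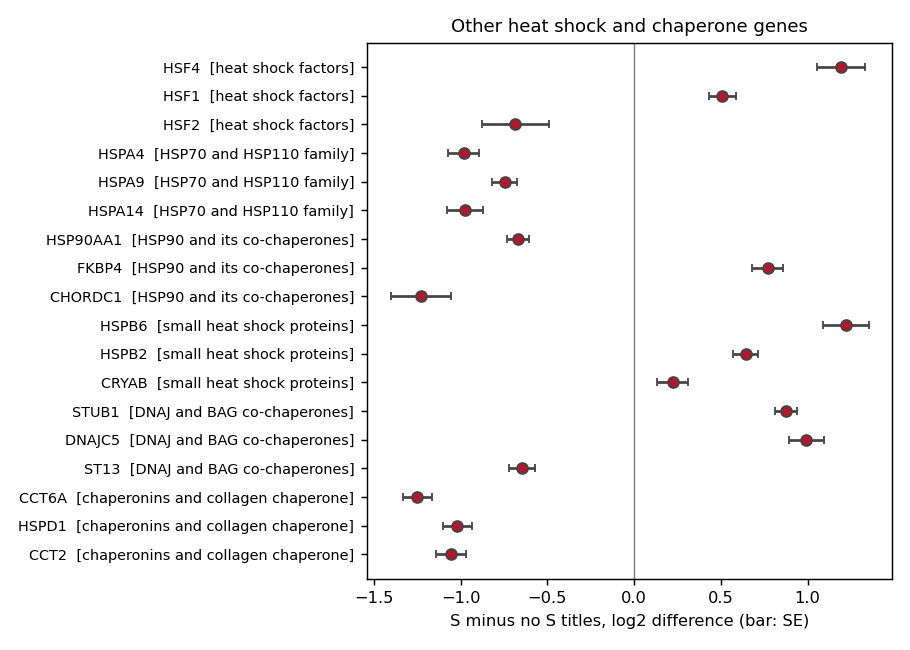
S minus no S log2 differences (bars: SE) of the 3 genes with the smallest p in each list of heat shock factors and chaperones. Small heat shock proteins lie above 0 (0.22 to 1.22), HSP70 relatives and chaperonins below it (-0.75 to -1.25), and the other lists hold both directions.

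Of 8 glucocorticoid targets, 4 rose and 2 fell. PDK4, the kinase that spares glucose in fasting, fell by 2.01 (SE 0.32, adjusted p = 1.66e-05), with mean log2 values of 10.64 ± 1.04 in S and 12.64 ± 0.36 in no S (SD, n = 10 each) and no overlap. GLUL, the glutamine synthetase, fell by 0.40 (SE 0.09, adjusted p = 6.42e-04). CEBPD, which the immediate early list holds too, rose by 0.69 (SE 0.18, adjusted p = 0.00256, second probe set 0.27). Of 9 hypoxia targets, 2 rose and 2 fell: NDRG1 by 0.45 (SE 0.15, adjusted p = 0.0106) and ADM by 0.71 (SE 0.25, adjusted p = 0.0152) upwards, and HIF1A by 0.67 (SE 0.16, adjusted p = 9.47e-04) downwards.

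Markers of other cell types also differed between title sets. Counts are of tested markers. Sums take 1 probe set of every list marker on the array, also of markers too dim to test. The sums held 9 genes against 6 tested for adipocytes, 4 against 3 for satellite cells and 9 against 5 for endothelial cells. They held 5 against 2 for red blood cells and 5 against 1 for neutrophils. In the IMF contrast 0 markers passed in all 12 lists; of the 6 adipocyte markers 4 had an unadjusted p under 0.05, with a median log2 difference of 1.34 and list sums of 2707 to 31865 in high and 2269 to 12355 in low IMF. Of 6 tested adipocyte markers 5 rose and 1 fell in S, and the summed intensity of the list ran from 2269 to 31865 in S and from 2411 to 10166 in no S. Of 5 macrophage markers 4 rose, with sums of 758 to 1172 in S and 344 to 958 in no S. Of 3 tested satellite cell markers 2 rose, and the list sums were 429 to 654 in S and 224 to 366 in no S, which did not overlap. Endothelial markers rose in 3 of 5, with sums of 1668 to 2822 in S and 1180.2 to 1790 in no S. Red blood cell markers rose in 2 of 2, with sums of 183 to 711 in S and 123 to 463 in no S, and liver markers in 2 of 6, with 1786 to 31404 in S and 1192 to 30564 in no S. Fibroblast markers (3 rose, 1 fell of 7), smooth muscle markers (2 and 2 of 6), lymphocyte markers (1 rose of 3), neutrophil markers (0 of 1) and nerve markers (0 rose, 2 fell of 2) had sums that overlapped between the sets. The lymphocyte gene CD5 and the red blood cell gene SLC4A1 were at 0 on at least 1 array. In bulk muscle, fewer cells of a type and less RNA per cell cannot be told apart, and the part of these cells in the differences between S and no S was not tested.

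With values centred within title sets and pooled over both, the levels of the 10 genes were set against 16 measures of the arrays. These were the array median, the 3' to 5' ratios of actin and GAPDH, the BioB control and the 12 marker sums. Of the 160 correlations 0 passed by Pearson's r (lowest adjusted permutation p = 0.739), and 7 had an unadjusted permutation p under 0.05. That is no larger a share than chance alone would give. By Spearman's rho, HSPA1A with the liver sum had the smallest p (rho = -0.70, permutation p = 0.00126, adjusted 0.202). The 7 by Pearson's r were HSPB1 with the satellite cell sum (centred r = 0.58), FOS and ATF3 with the adipocyte sum (0.48 and 0.55), HSPA1A and HSPB1 with the endothelial sum (0.51 and 0.48), JUNB with the neutrophil sum (-0.52) and DNAJB1 with the nerve sum (-0.54). Pooling hides relations of opposite sign in the sets. With the actin ratio, r in S and no S was 0.69 and -0.66 for EGR1 and 0.64 and -0.70 for JUNB. It was 0.58 and -0.60 for FOS, 0.49 and -0.44 for JUN and 0.45 and -0.34 for ATF3. The heat shock genes had -0.19 to 0.23 in S and 0.08 to 0.72 in no S. Relations within single sets were not tested.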

How the data were processed

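The authors deposited linear signal intensities per probe set from 20 Affymetrix cattle arrays, as read from the table itself. Per the submitters' processing notes, GCOS 1.1.1 and Affymetrix Expression Console 1.1 were used. The summary method, the normalization and a genome build are not given in the sources used here, so no coordinates or sequences are printed. From 24128 probe sets 112 controls were removed. Values were taken as log2(intensity + 1), which understates the change of dim probe sets, and the 40% with the lowest mean were left out (14410 tested). Symbols came from the platform annotation: 13318 probe sets have 1 symbol, 86 several and 10724 none, and 10 of 11 gene identifiers of the 10 genes were found in the RefSeq gene table.

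High minus low IMF, S minus no S (with IMF group as a covariate) and their interaction were tested two-sided in R 4.3.3 by the linear models and eBayes of limma 3.58.1, adjusted by Benjamini-Hochberg over all tested probe sets at 0.05. Intervals are 95%. The code was tested on simulated data. The design text names a paired t-test, but the labels pair no animals, so tests were unpaired. Correlations across bulls used numpy 2.4.6 and two-sided permutation tests with 100000 permutations. The promoter motif search that had been planned was not run, since no sequence table was used here.

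The members, the 12 gene lists, the 12 marker lists and the tests were chosen with earlier results of these data known. Named genes were all members, the 3 genes most like each member by Pearson's r over 20 bulls, and the 3 genes with the smallest p, over the IMF and title set contrasts, in each list that is no marker list. The tables of array measures and of list genes against members were added after the values were seen. Alternatives were quantile normalization, centring arrays on their medians, a pseudocount of 16, no filter, a filter at 60%, an unpaired t-test, other covariates, single title sets or IMF groups, leaving out 4 arrays with an albumin signal over 2000, 2 arrays with the lowest median, and each array in turn.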

Additional observations from a re-analysis of the deposited data

Results flagged for a closer look

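One value stood apart from its group. JUNB in high IMF replicate 3 was 9.17 log2 units, the lowest of the 10 high IMF bulls, with the next at 10.32, so that the gap took 0.47 of the group's range. It was found by comparing each group's lowest and highest bull with the nearest other bull, in 40 groups (the 10 main probe sets by IMF group and by title set), of which chance would pick about 1 in 20. The 1 value found is thus no more than chance would give. The groups by IMF and by title set hold the same bulls. High IMF replicate 3 was also the lowest of all in the main probe sets of FOS and EGR1.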

How the results depend on the processing

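The counts of probe sets called were stable: 0 of 22 for IMF and for the interaction under every alternative run, and 8 to 12 for S minus no S. Leaving out each array gave 9 to 11 calls for S minus no S, 0 for IMF and the interaction, and 9 to 11 correlated pairs, against 7 to 11 under the other alternatives. No paired analysis was possible because the labels pair no animals. For IMF, signs near 0 turned: JUN was 0.0257 with centred arrays, 0.0316 without the 2 dimmest arrays and 0.00494 within S. HSPB1 was -0.0803 without the 4 high albumin arrays, -0.00997 without the 2 dimmest and -0.000518 within S. FOS was -0.204 without the 4 high albumin arrays, and HSPA1A 0.0399 within no S. Leaving out each array gave ranges of -0.0937 to 0.212 for FOS, -0.0606 to 0.0235 for JUN, -0.167 to 0.105 for JUNB, -0.0251 to 0.0619 for HSPA8, -0.0087 to 0.0826 for HSPB1 and -0.31 to 0.00603 for DNAJB1.

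For S minus no S, without the 4 high albumin arrays, the second FOS probe set turned to -0.0629 and JUN to -0.0132. The fourth brightest HSPA1A probe set was -0.0187 within high IMF. One JUN probe set ran from -0.000234 to 0.146 over single arrays left out. JUNB lost its call without a filter (adjusted p = 0.0714), by the t-test (0.0634), without the 4 arrays (0.159) and within high IMF (0.238) or low IMF (0.105); it was also lost without high IMF replicates 2, 3, 6, 7 or 10 or low IMF replicates 2, 3, 5, 6, 7, 9 or 10. A bright HSPA1A probe set lost it within high IMF (0.27, adjusted p = 0.169). HSPA1A's main probe set passed without high IMF replicate 3, at 0.25. A further one passed without high IMF replicate 3, low IMF replicate 4 or low IMF replicate 8, at 0.37 to 0.40. The cause of these shifts was not tested. With 1 array per bull and no detection calls, the number of arrays limits the precision. Where nothing says how the bulls were sampled, p-values measure only the spread between these samples.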
